A study of Mus musculus with 30 samples.

Results

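The Krüppel-like factors *Klf2*, *Klf3*, *Klf4*, *Klf5*, *Klf6*, *Klf7*, *Klf9*, *Klf10*, *Klf13* and *Klf15* were followed through the course of postoperative ileus in the mouse small bowel. They were picked by gene symbol, as 10 of the 24601 genes in the table of total *muscularis externa* (*ME*) RNA and of the 26179 genes in the *RiboTag* tables, in which the transcripts of a gene were summed. The choice was made with earlier results of these data known. Shares and medians of the members beside those of all genes are therefore descriptions. All 10 were present in both fractions, and 6 further *Klf* genes in the tables were kept for a list of relatives.

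Krüppel-like factors are transcription factors with zinc fingers at the carboxy-terminal end that bind GC-rich and CACCC sequences in gene regulatory regions. Because the DNA-binding part is shared, members are told apart by their amino-terminal ends, through which some recruit co-activators and others the co-repressors CtBP or *Sin3a*. Several are immediate early genes of injured tissue, several set the quiescent state of vessels and leukocytes, and *Klf9* and *Klf15* are textbook targets of the glucocorticoid receptor.

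RNA was sequenced as 3′ end libraries from adult male mice, either untreated (naïve) or after intestinal manipulation (IM), in which the abdomen was opened and the small bowel was rolled with moist swabs. Tissue was taken after 3 h (IM3h), 24 h (IM24h) or 72 h (IM72h). *RiboTag* libraries hold mRNA pulled down with HA-tagged ribosomes, and the tag on *Rpl22* is switched on where Cre is active. By the labels, all *RiboTag* mice came from a cross of B6 Tg(Sox10-icre/ERT2)388Wdr/J, in which tamoxifen activates Cre in cells using the *Sox10* promoter, mainly enteric glia, with B6N.129 Rpl22tm1.1Psam/J, which carries the tag. Naïve and IM3h *ME* libraries were labelled as from B6.Cg-Tg73.12Mvs/J(Gfap-cre), with Cre under a *Gfap* promoter, crossed with the same B6N.129 Rpl22tm1.1Psam/J mice, whereas IM24h and IM72h *ME* libraries carried the *Sox10*-dependent Cre and the same tagged *Rpl22*. Against naïve *ME*, therefore, time after IM and mouse line cannot be told apart at IM24h and IM72h. Counts were available for 3, 4, 4 and 4 *RiboTag* libraries and for 3, 3, 4 and 4 *ME* libraries (naïve, IM3h, IM24h, IM72h). The labels list 4 naïve *RiboTag* samples and the tables hold 3. The study describes its replicates as animals. As nothing in the tables ties a library to an animal, p-values are given as measures of the spread between libraries.

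Library totals were 3010338 to 7899551 counts in *RiboTag* and 6603125 to 12866014 in *ME*. Before the results, some libraries have to be named that went against their label. *Sox10*, which defines the captured cells, had 3826, 9191 and 4838 counts in the naïve *RiboTag* libraries and 5206, 4239, 2384 and 3034 at IM3h. It had 3336, 93, 121 and 1366 counts at IM24h and only 25, 6, 0 and 2 at IM72h, where *Gfap* had 0, 0, 17 and 15. The gene AY036118 took 2.68% to 13.98% of the counts of naïve *RiboTag* libraries, 2.02% to 10.3% at IM3h (highest in library 4), 22.2% to 59.2% at IM24h (highest in libraries 2 and 3) and 58.0% to 80.1% at IM72h, which left 663819 to 1619436 other counts per library at IM72h. In the *ME* it took 16.1% to 33.5% in naïve mice, 24.1% to 25.2% at IM3h and 1.33% to 6.50% later. *RiboTag* values at IM72h, and of IM24h libraries 2 and 3, are therefore given as values of libraries with few *Sox10* counts. In the naïve state the label held, as 8 of 8 glial markers were higher in *RiboTag* than in *ME*, among them *Sox10* with a log2 difference of 5.76 ± 0.34 (SE, adjusted p = 4.18e-05).

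The promoters of 5 members are shown first, because their mRNA rose most in *RiboTag* at IM3h (*Klf2*, *Klf4*, *Klf6*), was the most abundant (*Klf9*) or was lower in the *ME* at all 3 times (*Klf15*). Each is the RefSeq window of 300 bases (250 before and 50 after the transcription start, build GRCm38.p6), read 5′ to 3′ on the strand of the gene. Capitals mark TGACG, the core of the cAMP response element, and GGGCGG, the GC box that Sp and Krüppel-like factors bind, each on either strand. The windows are chr8:72318812-72319111 (plus strand), chr4:55532426-55532725 (minus strand), chr13:5861239-5861538 (plus strand), chr19:23140976-23141275 (plus strand) and chr6:90462326-90462625 (plus strand).
*Klf2*: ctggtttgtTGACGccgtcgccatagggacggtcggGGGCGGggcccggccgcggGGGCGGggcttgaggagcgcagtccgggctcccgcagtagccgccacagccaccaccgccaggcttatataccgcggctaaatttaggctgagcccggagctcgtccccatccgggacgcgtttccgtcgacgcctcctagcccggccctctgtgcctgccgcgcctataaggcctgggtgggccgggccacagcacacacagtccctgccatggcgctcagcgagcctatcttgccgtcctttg
*Klf4*: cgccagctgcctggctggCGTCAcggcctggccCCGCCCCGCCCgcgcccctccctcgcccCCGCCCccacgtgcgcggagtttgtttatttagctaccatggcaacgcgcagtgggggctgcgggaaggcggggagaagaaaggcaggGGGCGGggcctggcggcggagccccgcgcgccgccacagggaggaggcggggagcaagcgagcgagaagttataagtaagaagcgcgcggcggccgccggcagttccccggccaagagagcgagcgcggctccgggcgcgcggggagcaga
*Klf6*: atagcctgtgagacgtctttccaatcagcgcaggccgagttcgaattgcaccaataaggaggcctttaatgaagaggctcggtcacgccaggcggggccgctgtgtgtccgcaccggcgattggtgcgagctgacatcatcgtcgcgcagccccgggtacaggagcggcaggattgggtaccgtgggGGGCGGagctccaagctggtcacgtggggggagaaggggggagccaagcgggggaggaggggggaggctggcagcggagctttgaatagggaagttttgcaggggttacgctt
*Klf9*: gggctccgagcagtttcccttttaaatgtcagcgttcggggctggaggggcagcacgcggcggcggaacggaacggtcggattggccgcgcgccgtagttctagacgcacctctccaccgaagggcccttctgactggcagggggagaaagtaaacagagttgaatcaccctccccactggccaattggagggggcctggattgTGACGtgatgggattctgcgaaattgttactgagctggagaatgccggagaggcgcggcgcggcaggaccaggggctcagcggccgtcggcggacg
*Klf15*: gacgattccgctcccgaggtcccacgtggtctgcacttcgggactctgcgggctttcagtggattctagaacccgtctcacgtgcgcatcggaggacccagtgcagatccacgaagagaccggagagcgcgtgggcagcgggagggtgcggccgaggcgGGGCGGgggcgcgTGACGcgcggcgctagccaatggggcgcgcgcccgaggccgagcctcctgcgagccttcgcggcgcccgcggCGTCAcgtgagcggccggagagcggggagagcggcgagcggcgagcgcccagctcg

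A window was found for 8 of the 10 members, all but *Klf5* and *Klf10*. TGACG stood in 6 of these 8 windows and in 20.8% of all 32851 promoter windows of the same length, and GGGCGG in 7 of 8 and in 35.7% of all. CACCC was found in 6 of 8 and in 57.5% of all windows, and TATAA, a core of the TATA box, in 2 of 8 (*Klf2* and *Klf4*) and in 24.9%. In *Klf4* the TATAA matches began 32 and 31 bases before the start and overlap each other, and in *Klf2* at 131 and 29 bases. The full palindrome TGACGTCA, which contains TGACG, was in none of the 8 windows and in 1.79% of all, and the CArG box of serum response factor in none and in 1.63%. All motifs were searched on both strands, and these matches describe the letters of the windows alone. The genes themselves are at chr8:72319033-72321656 (*Klf2*), chr5:64803388-64832901 (*Klf3*), chr4:55527143-55532466 (*Klf4*), chr14:99298691-99315036 (*Klf5*), chr13:5861482-5870394 (*Klf6*), chr1:64029447-64122282 (*Klf7*), chr19:23141226-23168134 (*Klf9*), chr15:38291463-38300706 (*Klf10*), chr7:63886351-63938915 (*Klf13*) and chr6:90462576-90475238 (*Klf15*) in the GENCODE annotation of GRCm38.

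In the naïve *ME*, *Klf9* was the most abundant member, and *Klf15*, *Klf10* and *Klf2* were the lowest. Levels are CPM, the count of a gene scaled to a common library total, after TMM scaling within a fraction, and in a 3′ end library about one read stands for one transcript, so that they were compared between genes without division by length. *Klf9*, a Sin3a-binding repressor, reached 564, 560.1 and 445 CPM in the 3 naïve *ME* libraries. Next came *Klf7*, known from axon growth, with 209, 241 and 228 CPM, below every *Klf9* library. *Klf13*, *Klf6* and *Klf3* followed with 129 ± 2.67, 121 ± 3.52 and 108 ± 7.19 CPM (mean ± SD, n = 3). Of these neighbours, *Klf13* and *Klf6* did not overlap (126 to 131 against 117 to 124 CPM) but differed by little more than the spread of the naïve libraries. *Klf5* (18.5 to 42.4 CPM) and *Klf4* (23.9 to 34.9 CPM) overlapped. *Klf10* (8.84 to 15.7 CPM) overlapped with both *Klf2* (13.6 to 16.7 CPM) and *Klf15* (9.69 to 12.4 CPM). In naïve *RiboTag* libraries the order was headed by the same pair, *Klf9* with 226, 247 and 202 CPM and *Klf7* with 200.1, 158 and 182 CPM. *Klf15* was the lowest there, at 3.94, 4.07 and 5.1 CPM.

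Set side by side on one scale, 3 members were lower in naïve *RiboTag* than in naïve *ME*, and none was higher. *Klf9* had 307, 329 and 268 CPM in *RiboTag* and 589.7, 579.9 and 471 CPM in *ME* (log2 fold change -0.86 ± 0.16 (SE), adjusted p = 0.00589). *Klf6*, an early response factor of wounds, had 79.3, 60.3 and 72 CPM against 127, 128 and 124 CPM (log2 fold change -0.84 ± 0.16 (SE), adjusted p = 0.00609). *Klf13*, a relative of *Klf9* with the same co-repressor, had 104, 88.2 and 87.9 CPM against 136, 130.2 and 138 CPM (log2 fold change -0.53 ± 0.15 (SE), adjusted p = 0.0304). In all 3 every *RiboTag* library lay below every *ME* library. Here and below, overlap of libraries was read for the members alone, and its share over all genes was not counted. The other 7 did not pass the test. *Klf7* differed by 0.032 (95% interval -0.32 to 0.39) and *Klf2* by -0.039 (-0.82 to 0.74), whereas *Klf15* differed by -1.005 ± 0.37 (SE, adjusted p = 0.077) with no overlap of the libraries. Over all genes, 26.1% were called in either direction in this comparison, which also sets the 2 Cre lines against each other. Without any 1 of the naïve *ME* libraries the call of *Klf13* was lost (adjusted p = 0.115, 0.0647 and 0.114), and with scaling by the library total, which moved the median of all genes to 0.73, none of the 3 was called, *Klf6* and *Klf9* being at -0.11 and *Klf13* at 0.19, while *Klf7* was higher (0.76, adjusted p = 0.00746). That scaling called 5640 of all genes, and TMM 3862.

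**Figure D1:**
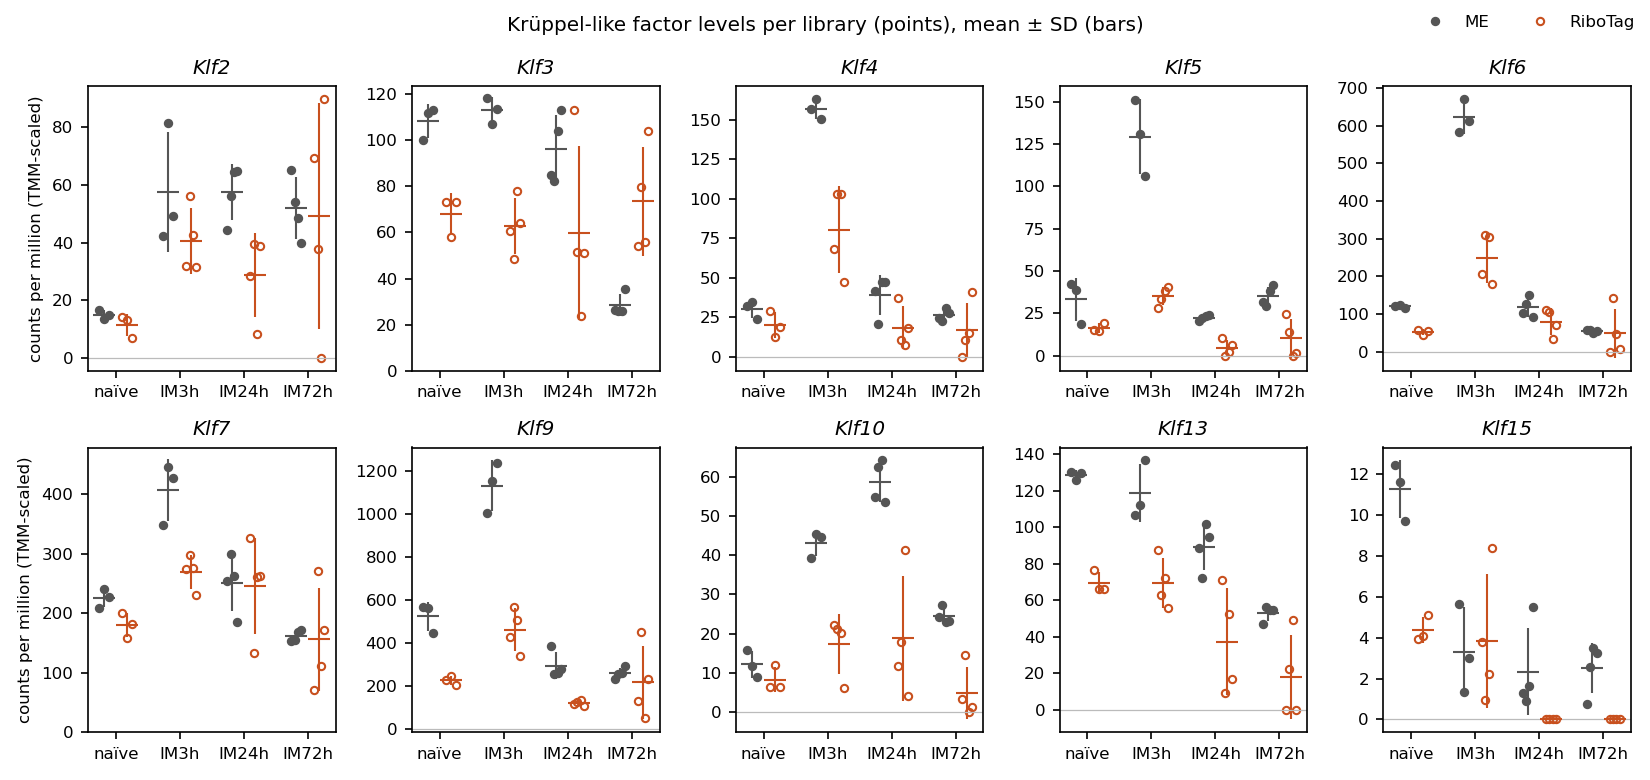
Level of each Krüppel-like factor in every library. The vertical axis is TMM-scaled CPM and the horizontal axis the group (naïve, IM3h, IM24h, IM72h); filled grey points are *ME* libraries, open orange points *RiboTag* libraries, and bars are mean ± SD. In the *ME* panel of *Klf6* the 3 IM3h libraries lie between 583.5 and 671.1 CPM, above all 11 others.

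At IM3h, 7 of the 10 factors rose in the *ME* and 1 fell. Those that rose were *Klf6*, *Klf4*, *Klf5*, *Klf2* and *Klf7*, which mostly activate transcription, and the repressors *Klf10* and *Klf9*, with changes between 1.86-fold (*Klf7*) and 5.38-fold (*Klf4*). *Klf15* was the one that fell, to 3.32 from 11.2 CPM. *Klf3* and *Klf13* did not pass the test. Among all genes tested, 19.3% were called higher and 13.4% lower, and the median log2 fold change was 0.00071 against 1.52 for the 10 members.

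*Klf6* had 122, 124 and 117 CPM in naïve *ME* and 584, 671 and 613 CPM at IM3h (log2 fold change 2.41 ± 0.11 (SE), adjusted p = 4.2e-07). *Klf4*, which keeps smooth muscle cells from their contractile program and takes part in macrophage polarization, moved from 32.3, 34.9 and 23.9 to 157, 163 and 150.5 CPM (log2 fold change 2.43 ± 0.15 (SE), adjusted p = 2.11e-06). Both groups were tight, and the lowest IM3h library of either gene lay more than 4 times above the highest naïve one. *Klf5*, a growth-promoting factor of epithelium and smooth muscle, had 42.4, 38.8 and 18.5 CPM before and 151, 131 and 106 CPM at IM3h (log2 fold change 2.02 ± 0.27 (SE), adjusted p = 0.000317). *Klf2*, which holds endothelium and T cells in a resting state, had 16.7, 13.6 and 14.9 and 42.4, 81.5 and 49.2 CPM (log2 fold change 1.98 ± 0.23 (SE), adjusted p = 0.000139). The second IM3h library stood highest for *Klf2* and the third naïve library lowest for *Klf5*, and neither gene overlapped between the groups. *Klf10*, induced by TGF-β in textbook accounts, went from 15.7, 11.8 and 8.84 to 39.2, 45.3 and 44.7 CPM (log2 fold change 1.87 ± 0.20 (SE), adjusted p = 7.25e-05). *Klf9* had 564, 560.1 and 445 CPM and then 1001, 1153 and 1233 CPM (log2 fold change 1.16 ± 0.13 (SE), adjusted p = 9.63e-05), the largest gain in CPM of the family. *Klf7* had 209, 241 and 228 and 347, 445 and 427 CPM, a smaller change (log2 fold change 0.89 ± 0.12 (SE), adjusted p = 0.000364).

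*Klf15*, a regulator of amino acid, lipid and glucose metabolism, had 12.4, 11.6 and 9.69 CPM in naïve *ME* and 5.64, 1.33 and 2.99 CPM at IM3h (log2 fold change -1.69 ± 0.42 (SE), adjusted p = 0.012). It was low in every library, with 40, 9 and 18 counts at IM3h, and in a fit of all groups together the adjusted p was 0.0703. The repressors *Klf3*, a CtBP-binding factor, and *Klf13* gave 0.11 ± 0.11 (SE, adjusted p = 0.477) and -0.073 ± 0.11 (SE, adjusted p = 0.659). *Klf3* had 99.98, 112 and 113 CPM in naïve *ME* and 118, 107 and 114 CPM at IM3h, and *Klf13* 131, 126 and 130 and then 107, 112 and 137 CPM, on both sides of the naïve values. Both mouse groups at this time carried the same Cre line by the labels.

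In *RiboTag* libraries, 5 of these factors rose at IM3h and none fell. They were *Klf6*, *Klf4*, *Klf2*, *Klf5* and *Klf9*, by 2.14-fold to 4.97-fold. *Klf7* and *Klf10* had positive changes that did not pass the test, and *Klf3*, *Klf13* and *Klf15* had log2 changes of -0.059, 0.059 and -0.13. Here 8.86% of all genes tested were called higher and 4.44% lower, with a median log2 fold change of -0.041 over all genes and 1.11 over the members.

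*Klf6* had 58.5, 45.2 and 54.1 CPM in naïve *RiboTag* libraries and 207, 309, 305 and 180 CPM at IM3h (log2 fold change 2.31 ± 0.28 (SE), adjusted p = 0.000375). *Klf4* had 28.8, 12.4 and 19 and 68.2, 103, 103 and 47.2 CPM (log2 fold change 2.06 ± 0.38 (SE), adjusted p = 0.00454). For both genes IM3h libraries 2 and 3 were the highest and library 4 was the lowest, yet above all naïve libraries. *Klf2* had 14.2, 13.2 and 6.88 and 32.1, 56.2, 42.6 and 31.6 CPM (log2 fold change 1.89 ± 0.37 (SE), adjusted p = 0.00629). *Klf9* had 226, 247 and 202 and 429, 566, 508 and 339 CPM (log2 fold change 1.09 ± 0.25 (SE), adjusted p = 0.0134). *Klf5* had 15.1, 14.3 and 19.4 and 28.4, 33.3, 38.3 and 40.8 CPM (log2 fold change 1.17 ± 0.30 (SE), adjusted p = 0.0222). Unlike the other 4, *Klf5* was highest in the fourth IM3h library. *Klf7* had 200.1, 158 and 182 and 274, 297, 276 and 230.1 CPM, without overlap (log2 fold change 0.64 ± 0.22 (SE), adjusted p = 0.0783). *Klf10* ranged from 6.4 to 12 CPM in naïve libraries and had 22.2, 21.2, 20.1 and 6.07 CPM at IM3h, where the fourth library lay below the naïve ones (log2 fold change 1.13 ± 0.51 (SE), adjusted p = 0.176). That library also stood apart in the number of genes detected, 15829 against 18624 to 19311 in the other 3, and in the glial marker *S100b*, at 1727 against 274 to 434 CPM. Without that library both *Klf7* (0.70, adjusted p = 0.0312) and *Klf10* (1.40, adjusted p = 0.0229) passed the test.

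Marker genes moved beside these values. The summed CPM of 4 mesothelial markers was 84.3 to 238.6 in naïve *RiboTag* libraries and 6.97 to 68.2 at IM3h, with 3 of 4 called lower, and in the *ME* it was 86.7 to 125.5 and 1.77 to 11.7, with 4 of 4 lower. That of 7 epithelial markers in the *ME* was 147.5 to 404.4 in naïve mice and 214.1 to 1286 at IM3h, with 0 of 7 called. Endothelial markers (*Klf2* and *Klf4* are abundant in endothelium) summed to 39.2 to 51.3 CPM in naïve *RiboTag* libraries and 23.7 to 39.4 CPM at IM3h, with 1 of 7 tested called lower and none higher. In the *ME* they summed to 40.0 to 45.5 CPM in naïve mice and 46.4 to 58.9 CPM at IM3h, without overlap, with 1 of 8 called higher (*Pecam1*, 0.90 ± 0.21 (SE) on the log2 scale, adjusted p = 0.00853) and none lower. Smooth muscle markers summed to 4566 to 6998 CPM in naïve *RiboTag* and 1946 to 5039 CPM at IM3h, with 2 of 6 called lower, and in the *ME* to 20360 to 21890 and 15230 to 18020 CPM, also with 2 of 6 lower. Macrophage markers in the *ME* summed to 177.5 to 185.6 and 141.1 to 157.7 CPM, with 2 of 7 called lower (*Cx3cr1* and *Csf1r*) and 1 higher (*Cd68*). Fibroblast markers were lower in 2 of 4 genes in *RiboTag* and 3 of 4 in the *ME*, and those of interstitial cells of Cajal in 1 of 2 and 2 of 2. Neutrophil markers were higher in 2 of 2 genes tested in the *ME*, where 4 listed ones summed to 0.484 to 0.861 CPM in naïve mice and 19.6 to 28.6 CPM at IM3h. Of 8 glial markers in *RiboTag*, 3 were lower and 1 higher, and *Sox10* itself went from 486, 1038 and 573 to 402, 405, 277 and 284 CPM (-0.97 ± 0.29 (SE) on the log2 scale, adjusted p = 0.0471). Its response differed between the fractions by -1.56 ± 0.36 (SE, adjusted p = 0.039), *RiboTag* below *ME*. In the *ME*, 3 of the 8 glial markers were higher and 2 lower. The part of these cell types in the levels of the members was not tested. In bulk samples, fewer cells of a type and less RNA per cell cannot be told apart.

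Of the calls in *RiboTag*, *Klf6*, *Klf4* and *Klf2* kept theirs in all 7 fits with 1 library left out. Their largest adjusted p was 0.00434, 0.0292 and 0.0326, whereas the other calls rested on few libraries. *Klf5* lost its call without naïve library 1, 2 or 3 or IM3h library 2 or 3 (adjusted p = 0.0501 to 0.083), and *Klf9* without naïve library 1 or 3 (adjusted p = 0.0525 and 0.0733). When the libraries were scaled to *Actb*, *Hsp90ab1* and *Rplp1*, which moved the median of all genes to -0.45, the number of members called higher was 1, *Klf6*, with 548 genes called in all. In a fit of all groups together it was 0, with 34 genes called in all. Over all alternative settings the log2 changes of *Klf6*, *Klf4* and *Klf2* were 1.97 to 2.34, 1.81 to 2.09 and 1.54 to 1.91. Those of *Klf9* and *Klf5* were 0.73 to 1.12 and 0.71 to 1.19.

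**Figure D2:**
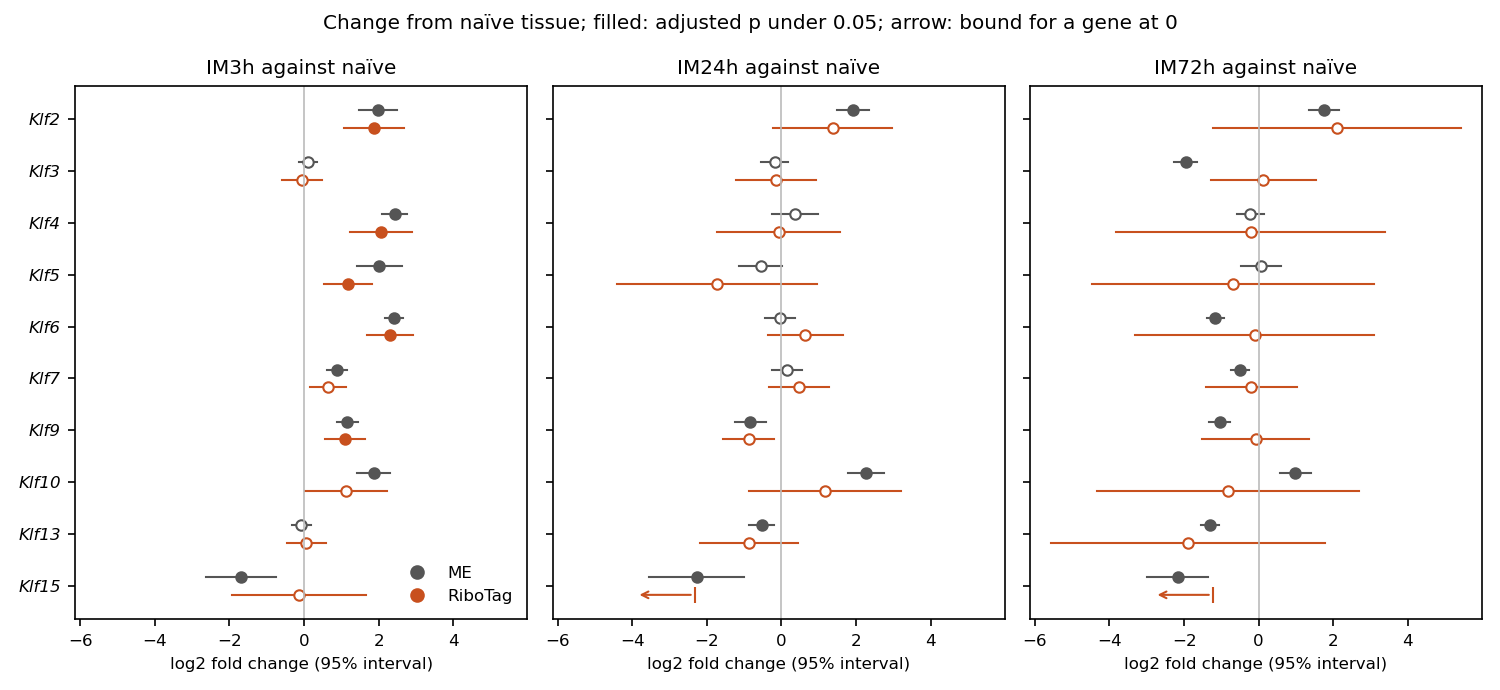
Change of each factor against naïve libraries of the same fraction. The horizontal axis is the log2 fold change with its 95% interval, by time after IM and fraction; filled points have an adjusted p under 0.05, and arrows mark *Klf15* at IM24h and IM72h in *RiboTag*, where all libraries had 0 counts and only a bound can be given. At IM3h, 7 *ME* points and 5 *RiboTag* points are filled on the side of higher values.

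Whether the response at IM3h differed between fractions was tested as the *RiboTag* change minus the *ME* change. None of the 10 differences passed the test or had an unadjusted p under 0.05 in edgeR, where 1.66% of all genes were called. The difference was -0.020 for *Klf6* (95% interval -0.64 to 0.60), -0.0063 for *Klf2* (-0.97 to 0.95) and 0.020 for *Klf9* (-0.56 to 0.60). For *Klf4* it was -0.28 (-1.19 to 0.63), for *Klf5* -0.76 (-1.58 to 0.059) and for *Klf10* -0.66 (-1.86 to 0.54). The intervals are narrow for *Klf6*, *Klf7* (-0.67 to 0.33) and *Klf9* and wide for *Klf15* (-0.39 to 3.72).

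**Figure D3:**
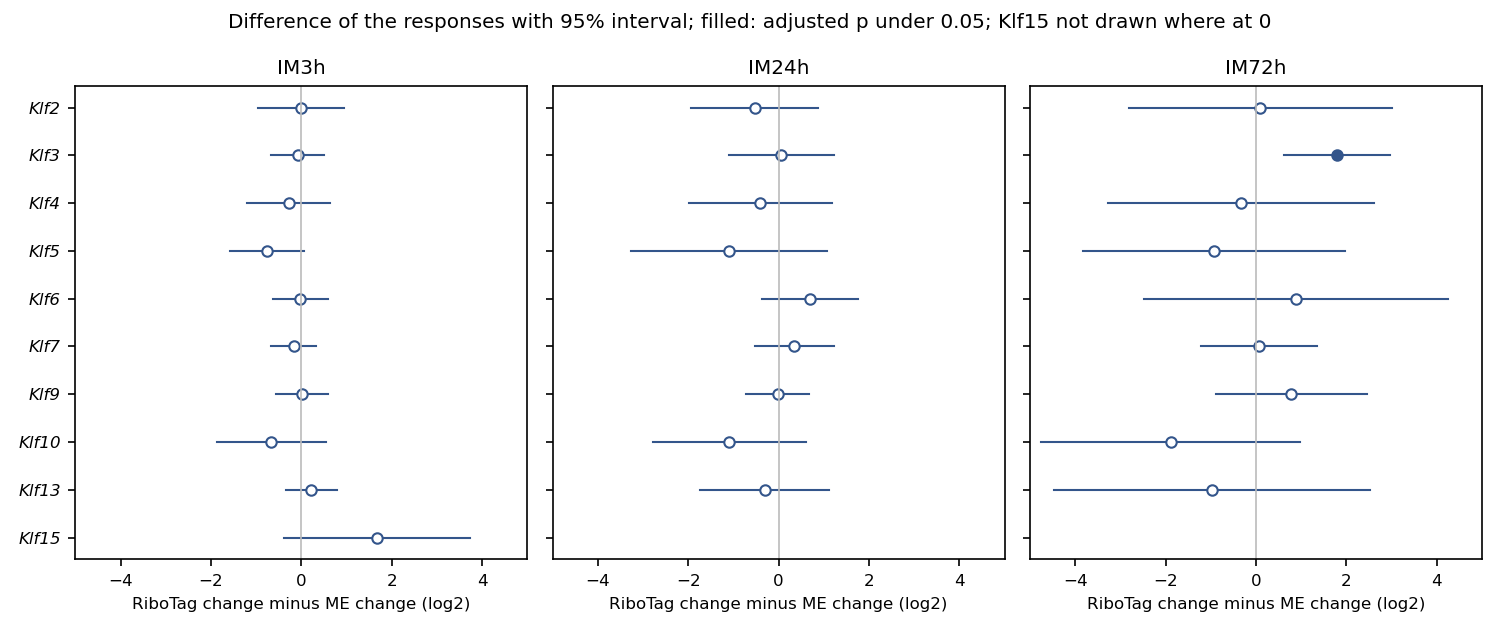
Difference between the fractions in the response to IM. The horizontal axis is the *RiboTag* change minus the *ME* change (log2) with its 95% interval, by gene and time; filled points have an adjusted p under 0.05, and *Klf15* is not drawn at IM24h and IM72h because its *RiboTag* libraries had 0 counts. Only *Klf3* at IM72h is filled, at 1.80.

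By IM24h members were called in both directions in the *ME*. *Klf10* and *Klf2* remained higher than in naïve *ME*, *Klf9*, *Klf13* and *Klf15* were lower, and *Klf4*, *Klf5*, *Klf6* and *Klf7*, all raised at IM3h, did not pass the test against naïve *ME*. *Klf10* was at 54.8, 62.3, 64.1 and 53.6 CPM, above the naïve libraries by 4.82-fold (log2 fold change 2.27 ± 0.22 (SE), adjusted p = 0.000121). *Klf2* was at 44.5, 56.2, 64.7 and 64.9 CPM (log2 fold change 1.93 ± 0.20 (SE), adjusted p = 0.000169). In both genes every IM24h library lay above every naïve one. *Klf9* was at 384, 253, 259 and 276 CPM, the first library apart from the other 3 and still under the naïve range (log2 fold change -0.84 ± 0.19 (SE), adjusted p = 0.00794). *Klf13* was at 88.6, 72.2, 102 and 94.6 CPM (log2 fold change -0.53 ± 0.15 (SE), adjusted p = 0.0268). *Klf15* was at 1.32, 0.901, 1.64 and 5.51 CPM, with the fourth library highest (log2 fold change -2.27 ± 0.57 (SE), adjusted p = 0.014). Without that library its log2 fold change was -3.12. Over all genes tested, 15.6% were called higher and 13.4% lower, so that the 2 of 10 members called higher were near that share.

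The remaining members at IM24h gave *Klf6* 104, 126, 152 and 93 CPM, around the naïve range (log2 fold change -0.029 ± 0.18 (SE), adjusted p = 0.92), and *Klf4* 41.4, 20.5, 47.2 and 47.2 CPM, with the second library low (log2 fold change 0.37 ± 0.28 (SE), adjusted p = 0.355). *Klf5* stood at 20.4, 22.1, 23.2 and 24.2 CPM, close to the lowest naïve library (log2 fold change -0.56 ± 0.26 (SE), adjusted p = 0.134). *Klf7* and *Klf3* gave 0.15 ± 0.18 (SE, adjusted p = 0.564) and -0.17 ± 0.16 (SE, adjusted p = 0.451). Smooth muscle markers moved with these values, summing to 20360 to 21890 CPM in naïve *ME* and 3207 to 9837 CPM at IM24h, with 5 of 6 called lower, and epithelial markers were lower in 3 of 7 genes (147.5 to 404.4 and 74.1 to 185.8 CPM). Macrophage markers summed to 177.5 to 185.6 and 382.2 to 551.5 CPM (5 of 7 higher) and endothelial ones to 40.0 to 45.5 and 64.0 to 90.5 CPM (3 of 8 higher). Neutrophil markers, 4 of which summed to 0.484 to 0.861 and 41.6 to 194.3 CPM, were higher in 3 of 3 genes tested. Of 8 glial markers in the *ME*, 1 was higher (*Sox10*) and 2 were lower (*S100b* and *Ngfr*). The part of these cell types in the levels was not tested. *Klf13* lost its call without naïve library 1, 2 or 3 or IM24h library 1 (adjusted p = 0.0573 to 0.101), and *Klf15* without naïve library 1 (0.0549). Without naïve library 3 *Klf5* passed the test as lower (-0.86, adjusted p = 0.0188), and without IM24h library 2 *Klf4* as higher (0.58, adjusted p = 0.0426). With scaling by the library total, which moved the median of all genes to 0.66, 5 members were higher, *Klf4* (1.03), *Klf6* (0.62) and *Klf7* (0.79) among them, and 1 was lower, as *Klf9* (-0.19) lost its call and *Klf13* (0.11) its sign. Of all genes, 7001 were called with the library total and 4740 with TMM.

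In *RiboTag* at IM24h no member passed edgeR's test, 2 had an unadjusted p under 0.05 (*Klf9* and *Klf15*), and with DESeq2 none was called. Over all genes 0.366% were called higher and 0.131% lower. *Klf9* had 116, 127, 134 and 105 CPM, all 4 libraries below the naïve ones (log2 fold change -0.88 ± 0.31 (SE), adjusted p = 0.21). *Klf15* had 0 counts in all 4 libraries, against 31, 36 and 43 counts in naïve *RiboTag*, which makes it at least 4.98-fold lower when 3 counts per library are taken as the floor. That bound covers counting error only. *Klf2* had 28.6, 39.6, 8.43 and 39 CPM, with 3 libraries above the naïve range and the third within it (log2 fold change 1.37 ± 0.74 (SE), adjusted p = 0.478). *Klf6* had 111, 106, 32.8 and 70.7 CPM, again lowest in the third library, one of the 2 with most AY036118 (log2 fold change 0.65 ± 0.46 (SE), adjusted p = 0.641). *Klf5* had 10.3, 0, 2.22 and 6.11 CPM, all below the naïve libraries (log2 fold change -1.73 ± 1.24 (SE), adjusted p = 0.642). The values of *Klf10* (4.01 to 41.2 CPM), *Klf13* (8.99 to 71.3 CPM), *Klf3* (23.9 to 113 CPM) and *Klf4* (7.54 to 37.4 CPM) were spread over a wide range. *Klf7* stood at 326, 133, 260.3 and 262 CPM (log2 fold change 0.47 ± 0.37 (SE), adjusted p = 0.674). Without libraries 2 and 3, which had the fewest *Sox10* counts and the most AY036118, still no member was called, and *Klf3* (0.31), *Klf4* (0.51) and *Klf10* (-0.016) had the other sign.

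Against the *ME*, the difference in response passed the test for no member at IM24h (0.537% of all genes called), and 1, *Klf15*, had an unadjusted p under 0.05. With scaling by the library total *Klf15* was called lower (adjusted p = 0.0498), where 450 of all genes were called. The difference was -0.023 for *Klf9* (95% interval -0.73 to 0.68) and -0.53 for *Klf2* (-1.94 to 0.87). For *Klf10*, higher in the *ME*, it was -1.09 (-2.77 to 0.59). Most of these intervals reach beyond a 2-fold difference in at least one direction. The *ME* side of these differences also spans the 2 Cre lines.

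The course from IM3h to IM24h was also compared directly. In *RiboTag*, 9 members could be tested, *Klf15* being too low, and *Klf9* fell from 339 to 566 to 105 to 134 CPM (log2 fold change -1.87 ± 0.30 (SE), adjusted p = 0.0096), where 1.84% of all genes were called. *Klf4* (-2.03 ± 0.53 (SE, adjusted p = 0.0701)), *Klf6* (-1.57 ± 0.40 (SE, adjusted p = 0.0693)) and *Klf5* (-2.80 ± 0.89 (SE, adjusted p = 0.135)) also had every IM24h library below every IM3h library but missed the threshold. DESeq2 called these 3 as well, 4 members in all, where it called 1163 of all genes and edgeR 261. Without IM3h library 2 the adjusted p of *Klf9* was 0.0538 in edgeR. The call of *Klf9* was also lost with scaling to *Actb*, *Hsp90ab1* and *Rplp1* (adjusted p = 0.053) and in a fit of all groups together (0.138), which left 0 members called. Without IM24h library 1 *Klf4* and *Klf6* passed (adjusted p = 0.0213 and 0.0484).

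In the *ME*, 5 members fell between IM3h and IM24h and 1 rose, with 27.6% of all genes called. *Klf5* fell most (log2 fold change -2.48 ± 0.17 (SE), adjusted p = 2.78e-05), followed by *Klf6* (log2 fold change -2.35 ± 0.18 (SE), adjusted p = 4.59e-05), *Klf4* (log2 fold change -1.96 ± 0.26 (SE), adjusted p = 0.000598), *Klf9* (log2 fold change -1.90 ± 0.19 (SE), adjusted p = 0.000153) and *Klf7* (log2 fold change -0.66 ± 0.18 (SE), adjusted p = 0.0225). *Klf10* was the one that rose (log2 fold change 0.49 ± 0.15 (SE), adjusted p = 0.0334), and *Klf2* differed by 0.042 (95% interval -0.48 to 0.56). Beside the fall of *Klf5*, epithelial markers were lower in 5 of 7 genes (214.1 to 1286 CPM in sum at IM3h and 74.1 to 185.8 CPM at IM24h) and smooth muscle markers in 4 of 6 (15230 to 18020 and 3207 to 9837 CPM), while macrophage markers were higher in 5 of 7, and their part in the values was not tested. Of the 7 members raised at IM3h, *Klf10* and *Klf2* were thus the ones not called lower at IM24h than at IM3h. The call of *Klf10* was lost in 6 of 7 fits with 1 library left out (adjusted p = 0.0519 to 0.159), all but that without IM24h library 4, and *Klf7* without IM3h library 2 or 3 or IM24h library 1 or 3 (0.0527 to 0.0927). With scaling by the library total 3 were higher and 4 lower, *Klf7* being at 0.15, and with *Actb*, *Hsp90ab1* and *Rplp1* 0 were higher and 5 lower. These scalings called 8185 and 1869 of all genes, and TMM 4465. These time points also carried different Cre lines.

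At IM72h, 6 members were lower than in naïve *ME* and 2 were higher. The fall included *Klf3* and *Klf13*, which had not passed the test at IM3h, and *Klf6* and *Klf7*, which had been raised then, beside *Klf9* and *Klf15*. *Klf2* and *Klf10* were still above naïve values, and *Klf4* and *Klf5* did not pass the test. Of all genes, 29.3% were called higher and 28.3% lower at this time, and the median log2 fold change was 0.023 over all genes and -0.78 over the members. The 2 of 10 members called higher were below the share of all genes.

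*Klf3* had 99.98, 112 and 113 CPM in naïve *ME* and 26.4, 26, 26 and 35.4 CPM at IM72h, 3.88-fold lower (log2 fold change -1.96 ± 0.14 (SE), adjusted p = 1.35e-06). *Klf13* had 131, 126 and 130 and 46.7, 56.5, 54.4 and 54.5 CPM (log2 fold change -1.31 ± 0.11 (SE), adjusted p = 3.61e-06). Both repressors were low in all 4 libraries, with *Klf3* a little higher in the fourth. *Klf6* had 57.4, 58.3, 51 and 54.2 CPM at IM72h, every library below the naïve ones (log2 fold change -1.16 ± 0.10 (SE), adjusted p = 6.26e-06). *Klf9* had 231, 254, 260 and 292 CPM (log2 fold change -1.04 ± 0.13 (SE), adjusted p = 5.49e-05), *Klf7* 153, 156, 168 and 172 CPM (log2 fold change -0.51 ± 0.11 (SE), adjusted p = 0.00207) and *Klf15* 0.756, 2.56, 3.47 and 3.25 CPM (log2 fold change -2.17 ± 0.37 (SE), adjusted p = 0.000467). *Klf2* had 65.4, 54.3, 48.5 and 39.9 CPM (log2 fold change 1.75 ± 0.18 (SE), adjusted p = 1.67e-05) and *Klf10* 24.1, 27.3, 23 and 23.3 CPM (log2 fold change 0.98 ± 0.19 (SE), adjusted p = 0.00108). Although no such count was made over all genes, every library of these 8 genes lay outside the naïve range. *Klf4* (22.6 to 30.9 CPM, -0.22 ± 0.16 (SE, adjusted p = 0.26)) and *Klf5* (29.5 to 41.5 CPM, 0.066 ± 0.24 (SE, adjusted p = 0.833)) overlapped with it.

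Macrophage markers, summing to 1142 to 1444 CPM at IM72h, were higher in 7 of 7 genes and endothelial markers, at 94.2 to 115.6 CPM, in 6 of 8, while 3 of 6 smooth muscle markers were lower (11510 to 18370 CPM in sum). Beside the 6 members that were lower, markers of interstitial cells of Cajal were lower in 2 of 2 genes (212.5 to 223 CPM in naïve *ME* and 77.1 to 92.2 CPM at IM72h), of neurons in 2 of 5 (302.9 to 307.5 and 162.6 to 187.3 CPM) and of mesothelium in 3 of 4, and their part was not tested. The endothelial sum was 46.4 to 58.9 CPM at IM3h and its range was higher at each later time, while *Klf2* had 57.7 ± 20.9, 57.6 ± 9.58 and 52 ± 10.7 CPM (mean ± SD) at the 3 times, and the part of endothelial RNA in these values was not tested. T cell markers were higher in 4 of 4 genes at IM72h and fibroblast markers in 2 of 4, and of 8 glial markers 3 were higher and 3 lower. No call of a member at IM72h in the *ME* was lost or gained when 1 library was left out. With scaling to *Actb*, *Hsp90ab1* and *Rplp1*, which moved the median of all genes to -0.58, *Klf10* was not called (0.37, adjusted p = 0.168) and *Klf4* was lower (-0.82, adjusted p = 0.00453), which gave 1 higher and 7 lower. With the library total, at a median of 0.62, it was 4 higher, *Klf4* (0.39) and *Klf5* (0.69) included, and 5 lower, as *Klf7* was at 0.10. Of all genes, 9994 were called with the reference genes, 10473 with the library total and 9544 with TMM.

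Within the *Sox10*-dependent line, IM72h was compared with IM24h in the *ME*, where 38.5% of all genes were called. *Klf3* (log2 fold change -1.79 ± 0.17 (SE), adjusted p = 3.57e-05), *Klf10* (log2 fold change -1.30 ± 0.13 (SE), adjusted p = 6.09e-05), *Klf6* (log2 fold change -1.14 ± 0.16 (SE), adjusted p = 0.000386), *Klf13* (log2 fold change -0.79 ± 0.14 (SE), adjusted p = 0.00134) and *Klf7* (log2 fold change -0.66 ± 0.16 (SE), adjusted p = 0.00708) were lower at IM72h than at IM24h. *Klf5* rose (log2 fold change 0.62 ± 0.16 (SE), adjusted p = 0.00935). Epithelial markers were higher beside it in 4 of 7 genes (74.1 to 185.8 CPM in sum at IM24h and 292.5 to 645.3 CPM at IM72h), smooth muscle markers in 3 of 6, macrophage markers in 5 of 7 and fibroblast markers in 3 of 4. Markers of interstitial cells of Cajal were lower in 2 of 2 genes, of neurons in 2 of 5 and of neutrophils in 2 of 4, beside the members that were lower, and their part in the values was not tested. *Klf9*, *Klf15* and *Klf2* showed differences of -0.21, 0.083 and -0.18, which did not pass the test, and *Klf4* passed it without IM24h library 2 (-0.80, adjusted p = 0.00282). With scaling to *Actb*, *Hsp90ab1* and *Rplp1*, *Klf5* was not called (0.39, adjusted p = 0.378). *Klf3* was thus lower at IM72h within 1 mouse line, and its IM24h libraries at 82.2 to 113 CPM overlapped with naïve *ME*.

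*RiboTag* libraries at IM72h, nearly without *Sox10* counts, gave 1 call among the members, *Klf15* as lower, where 1.05% of all genes were called higher and 15.1% lower. Of 8 glial markers, 2 were called lower (*Sox10* and *Ngfr*) and none higher, and *S100b* had 1027, 101, 761 and 1077 CPM, above the naïve 704, 429.9 and 532 CPM in 3 of 4 libraries. *Klf15* had 0 counts in all 4 libraries and was at least 2.34-fold lower by the same floor. The call was lost with DESeq2 (adjusted p = 0.0566), without a filter on low counts (0.148) and in a fit of all groups (0.0667). The other members varied widely among the 4 libraries. *Klf6* had 0, 142, 46.1 and 8 CPM, *Klf9* 129, 448, 51.9 and 233 CPM and *Klf2* 69.4, 37.8, 0 and 89.9 CPM. No library was the highest or the lowest in all 3 genes. *Klf13* had 0, 22.4, 49 and 0 CPM, all below the naïve libraries (log2 fold change -1.91 ± 1.65 (SE), adjusted p = 0.66). *Klf4* (0 to 41.2 CPM), *Klf5* (0 to 24.7 CPM), *Klf7* (70.8 to 270.1 CPM) and *Klf10* (0 to 14.5 CPM) overlapped with naïve values.

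*Klf3* was the member whose response at IM72h differed between the fractions above the floor. It had 54.2, 79.6, 55.7 and 104 CPM in *RiboTag* at IM72h and 73.1, 58.1 and 73.3 CPM in naïve *RiboTag*, against the fall in the *ME*, a difference of 1.80 ± 0.54 (SE, adjusted p = 0.0275). Over all genes 23.3% were called in this comparison and the median difference was -0.98. The *ME* side of the difference also sets mice of the 2 Cre lines against each other, which cannot be told apart from time. The call was lost without naïve *RiboTag* library 2 or 3, naïve *ME* library 1, 2 or 3 or *ME* IM72h library 1, 2 or 3 (adjusted p = 0.0556 to 0.0866), with scaling to *Actb*, *Hsp90ab1* and *Rplp1* (1.01, adjusted p = 0.223) and without a filter (1.68, adjusted p = 0.0535), and with scaling by the library total the sign was negative (-0.25). *Klf15* was called as well (adjusted p = 0.0143), but its fitted difference depends on the count added to zeros. Without *RiboTag* IM72h library 2, *Klf10* passed as lower in *RiboTag* (-3.56, adjusted p = 0.00857).

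Summed over the 10 factors, the naïve *ME* libraries held 1109 to 1273 CPM, and the 3 at IM3h 2552 to 2910 CPM, all above. At IM24h the sum was 958.5 to 1080 CPM and at IM72h 660.7 to 744.4 CPM, without overlap with naïve *ME*. *Klf9* made up 40.1% to 45.3% of the sum in naïve *ME*, 39.2% to 42.8% at IM3h, 23.95% to 35.6% at IM24h and 34.9% to 39.3% at IM72h. *Klf6* made up 9.73% to 10.5%, 21.3% to 23.1%, 9.65% to 14.04% and 7.24% to 8.69% at these times. Its share was therefore highest at IM3h. In *RiboTag* libraries the sum was 630.4 to 702.8 CPM in naïve mice, 1004 to 1499 CPM at IM3h, 495 to 825.1 CPM at IM24h and 330.3 to 1039 CPM at IM72h. All IM3h libraries lay above the naïve range, and those at IM24h lay outside it on both sides.

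**Figure D4:**
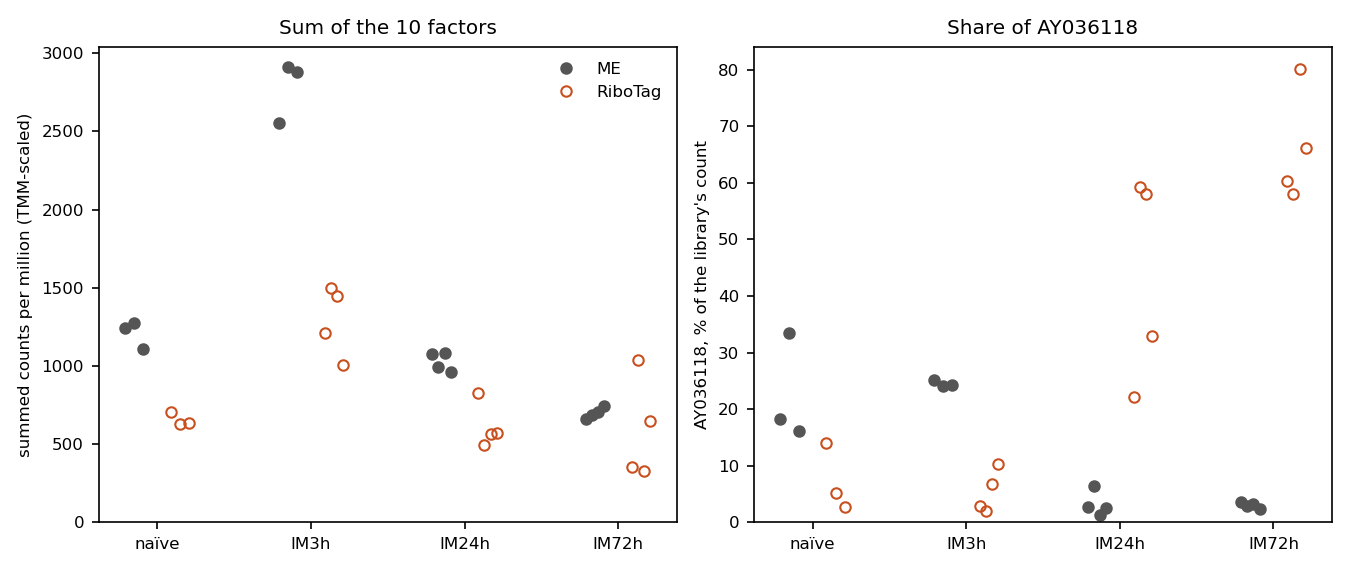
Summed level of the 10 factors and AY036118 in every library. One panel has the summed TMM-scaled CPM and the other the percent of all counts taken by AY036118 on the vertical axis, with the group on the horizontal axis and fractions marked as filled grey (*ME*) and open orange (*RiboTag*) points. The *ME* sum is 2552 to 2910 CPM at IM3h, and AY036118 reaches 80.1% in *RiboTag* at IM72h.

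Genes around the family were read from lists of relatives, upstream regulators, partners, reported targets and glucocorticoid response. Among relatives, 3 of 8 tested rose in the *ME* at IM3h, *Klf16* (1.77 ± 0.20, SE), *Klf11* (0.96 ± 0.27) and *Sp1* (0.38 ± 0.13) on the log2 scale. None of 8 was called at IM24h, and at IM72h 2 were higher and 3 lower, led by *Sp4* (-1.79 ± 0.19) and *Klf12* (-1.73 ± 0.30). In *RiboTag* 0 of 9 were called at IM3h and 0 of 8 at IM24h, and 2 of 6 were lower at IM72h. The counts of this and the next lists stand against the shares of all genes called. For higher and lower calls in the *ME* these came to 19.3% and 13.4% (IM3h), to 15.6% and 13.4% (IM24h) and to 29.3% and 28.3% (IM72h), so that the relatives at IM72h were near the share of all genes. In *RiboTag* they were 8.86% and 4.44%, 0.366% and 0.131%, and 1.05% and 15.1%.

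Upstream of *Klf2* and *Klf4*, the kinase ERK5 (*Mapk7*) acts through MEF2 factors. At IM3h *Mef2d* rose and *Mef2c* fell in the *ME* (1.496 ± 0.19 and -1.44 ± 0.17) and in *RiboTag* (1.23 ± 0.34 and -1.06 ± 0.29), which were 2 of 10 genes in *RiboTag* and, with the glucocorticoid receptor *Nr3c1* (-0.65 ± 0.10), 3 of 10 in the *ME*. At IM24h in the *ME* 2 were higher and 1 lower of 10, *Mapk7* itself at 1.22 ± 0.24, and at IM72h 5 were higher and 3 lower, with *Nr3c1* at -1.29 ± 0.12. In *RiboTag* 0 of 10 were called at IM24h and 1 of 10, as lower, at IM72h.

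Of 8 genes known to follow glucocorticoids, 5 rose in the *ME* and 6 in *RiboTag* at IM3h. The EGFR inhibitor *Errfi1* rose by 4.34 ± 0.20 in the *ME* and 4.63 ± 0.45 in *RiboTag*, and the phosphatase *Dusp1* by 3.36 ± 0.30 and 2.74 ± 0.55. *Klf9*, a target of the same receptor, rose beside them, whereas *Klf15*, another one, fell in the *ME* and was at -0.13 ± 0.83 (adjusted p = 0.949) in *RiboTag*. The median of the list was 2.34 in the *ME* and 2.53 in *RiboTag*, against all-gene medians near 0. At IM24h and IM72h, 5 of 8 were higher in the *ME* and none was lower, with the kinase *Sgk1* at 2.40 ± 0.31 and 1.35 ± 0.22, at times when *Klf9* and *Klf15* were both lower. In *RiboTag* 0 of 8 were called at IM24h and 1 of 7, as lower, at IM72h.

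Of 15 reported targets of Krüppel-like factors, 7 were higher and 1 lower in the *ME* at IM3h, where 19.3% and 13.4% of all genes were. The cell cycle inhibitor *Cdkn1a*, a target of *Klf4* and *Klf6*, stood at 3.90 ± 0.16 and thrombomodulin (*Thbd*), a target of *Klf2* in endothelium, at 1.53 ± 0.16. In *RiboTag* 3 of 14 were higher and 1 lower, with *Cdkn1a* at 2.64 ± 0.40, *Thbd* at 2.39 ± 0.65 and the cyclin *Ccnd1* at 2.32 ± 0.28. *Slc2a4*, the insulin-responsive glucose transporter and a target of *Klf15*, was the one that was lower in either fraction (-1.08 ± 0.11 and -1.62 ± 0.29). At IM24h 5 were higher and 3 lower in the *ME* and at IM72h 4 and 3, the latter near the shares of all genes (29.3% and 28.3%), beside neutrophil markers that were higher in 3 of 3 and 4 of 4 genes tested. In *RiboTag* 0 of 10 were called at IM24h and 2 of 10, both lower, at IM72h.

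Of the partners and turnover factors, 2 of 11 rose in the *ME* at IM3h, where 19.3% of all genes did. These were the co-activator *Ep300* (0.53 ± 0.12) and the ubiquitin ligase subunit *Fbxw7* (0.53 ± 0.13), and in *RiboTag* the co-repressor *Ctbp2* fell (-1.22 ± 0.28). *Sin3a*, the co-repressor of *Klf9*, *Klf10* and *Klf13*, was lower in the *ME* at IM24h (-0.81 ± 0.20) and IM72h (-0.97 ± 0.13), as was the ubiquitin ligase *Wwp1* (-0.93 ± 0.17 and -2.16 ± 0.13). At IM24h these were the 2 calls among 11, and at IM72h 3 were higher and 4 lower, where 29.3% and 28.3% of all genes were. In *RiboTag* 0 of 11 were called at IM24h and 1 of 10, as lower, at IM72h.

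For each member, the genes with the most alike course over the 14 *ME* libraries were found among 17919 genes by Pearson's r of log2 CPM, as a description, since libraries share depth, mouse line and time point. *Klf6* was nearest to *Nolc1* (r = 0.987) and *Oga* (0.984), *Klf3* to *Ubxn2a* (0.990) and *Gm17711* (0.990), *Klf9* to *Fbxo30* (0.987) and *Akap12* (0.978), and *Klf13* to *Fgf13* (0.983) and *Gm11560* (0.981). *Klf7* was nearest to *Nop14* (0.978) and *Chd1* (0.976), *Klf10* to *Hmga1* (0.979) and *Ran* (0.957), *Klf4* to *Mapkbp1* (0.964) and *Rab5a* (0.963), and *Klf5* to *Chka* (0.953) and *Elf1* (0.944). The lowest of these best values were those of *Klf2*, with *Sh3bp2* (0.947) and *Ube2f* (0.943), and *Klf15*, with *Mgat5* (0.930) and *Mxra8* (0.927).

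For 5 members, 1 transcript carried nearly all counts. *Klf2*, *Klf4* and *Klf15* were listed with 1 transcript in either fraction, and 1 transcript held 99.8% of *Klf6* and 99.7% of *Klf7* counts in *RiboTag*. The leading transcript held 84.3% of *Klf5*, 84.1% of *Klf9* and 66.6% of *Klf3* counts in *RiboTag*. *Klf10* was divided between Klf10-201 (45.5% in *ME*, 42.2% in *RiboTag*) and Klf10-202 (53.4% and 56.4%), and *Klf13* between Klf13-204 and Klf13-201 (67.9% and 31.3% in *RiboTag*). Such splits rest on the authors' assignment of 3′ reads to transcripts that can share an end.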

How the data were processed

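Total *ME* RNA and *RiboTag* mRNA of naïve mice and mice after IM were sequenced as 3′ end libraries (QuantSeq, single end). The authors trimmed reads with cutadapt, aligned them to mm10 (STAR) and, within Partek Flow, assigned them to Ensembl transcripts. The deposited tables hold their estimated counts, not scaled for library size, for features with a total of at least 10. Another 4 deposited tables hold the authors' comparisons (group means, fold changes, p-values) and were not used. Groups were read from the group entry of each table line, because line names match no label, and libraries are numbered in the order of their names.

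*RiboTag* transcripts were summed by symbol, counts were rounded, and each comparison was fitted over all genes in edgeR 4.0.16 under R 4.3.3 with TMM, filterByExpr and the two-sided quasi-likelihood test, called at a Benjamini-Hochberg adjusted p under 0.05. Only the groups compared entered a fit (4 groups for differences between fractions, joined by symbol). DESeq2 1.42.0, other scalings, no filter and leaving out libraries were alternatives. Scripts were tested on simulated data.

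The members and lists were chosen with earlier results of these data known. All 10 members are named, and of each list at most the 3 called genes with the largest change per comparison. The values of 1 such gene are not reported here. For a gene at 0 counts in a group, 3 counts per library served as the floor. Promoter windows come from RefSeq and coordinates from GENCODE.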

Additional observations from a re-analysis of the deposited data

Results flagged for a closer look

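Among groups of 4 libraries, the highest or lowest value of a member was tested for its gap to the others with Dixon's ratio at its 95% critical value. Of 48 groups tested, 3 had a value beyond it, and chance gives about 1 in 20. *Klf10* in *RiboTag* at IM3h was 6.07 CPM in library 4 and 20.1 to 22.2 CPM in the other 3 (ratio 0.872). *Klf15* in the *ME* at IM24h was 5.51 CPM in library 4 and 0.90 to 1.64 CPM in the others (ratio 0.840). *Klf3* in the *ME* at IM72h was 35.4 CPM in library 4 and 26.0 to 26.4 CPM in the others (ratio 0.956). The first of these libraries decides the call of *Klf10* in *RiboTag* at IM3h, as given with the results, and without the third *Klf3* was called lower at IM72h all the same.

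For 2 members the response at IM72h differed between the fractions by the test of the difference itself, a share close to the 23.3% of all genes called in that comparison. *Klf3* had a log2 difference of 1.80, *RiboTag* above *ME*, and lost its call in 8 of 14 fits with 1 library left out. *Klf15* had a fitted value of -6.15, which is no bound, because all *RiboTag* libraries at IM72h had 0 counts and the value depends on the count added to zeros. The *RiboTag* libraries concerned held almost no *Sox10* counts, and the *ME* mice at IM72h and naïve carried different Cre lines.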

How the results depend on the processing

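Of the 129 results on single members, RLE size factors kept 126 in direction and on their side of the threshold, no filter on low counts 122, DESeq2 120, all groups in 1 fit 112, an unadjusted p under 0.05 with a change of over 2-fold 109, scaling to *Actb*, *Hsp90ab1* and *Rplp1* 94 and scaling by the library total 85. The *ME* transcript table kept 90 of 90 and leaving out AY036118 77 of 79. With 1 library left out at a time, 974 values were kept, 86 changed sign, 34 lost and 8 gained the call. In several comparisons, scaling by the library total or the 3 reference genes moved the median of all genes by over 0.1, for *ME* IM24h to 0.66 with the library total and to -0.35 with the 3 reference genes, and for *RiboTag* IM72h to -2.13 and -2.07. The values below are log2 fold changes or differences that changed sign. The cause was not tested.

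With scaling by the library total, in *ME* IM24h against IM3h *Klf3* was 0.61, *Klf7* 0.15, *Klf13* 0.44 and *Klf15* 0.33. *ME* IM24h against naïve then had *Klf3* at 0.47, *Klf5* 0.10, *Klf6* 0.62 and *Klf13* 0.11. *ME* IM3h against naïve then had *Klf3* at -0.14. *ME* IM72h against naïve then had *Klf4* at 0.39 and *Klf7* 0.10. *RiboTag* IM24h against IM3h then had *Klf3* at -0.53 and *Klf10* -1.001. *RiboTag* IM24h against naïve then had *Klf6* at -0.15, *Klf7* -0.31 and *Klf10* -0.055. *RiboTag* IM3h against naïve then had *Klf13* at -0.12. *RiboTag* IM72h against naïve then had *Klf3* at -1.61. At IM24h the difference between fractions then had *Klf3* at -1.26, *Klf6* -0.76 and *Klf7* -1.10. At IM3h the difference between fractions then had *Klf9* at -0.0091. At IM72h the difference between fractions then had *Klf2* at -1.83, *Klf3* -0.25, *Klf6* -1.25, *Klf7* -1.995 and *Klf9* -1.25. Naïve *RiboTag* against naïve *ME* then had *Klf2* at 0.68, *Klf3* 0.42, *Klf4* 0.49, *Klf5* 0.091, *Klf10* 0.57 and *Klf13* 0.19. The members called were 5 higher in *ME* IM24h against naïve, 1 lower in *ME* IM24h against naïve, 4 higher in *ME* IM72h against naïve and 1 higher in naïve *RiboTag* against naïve *ME*. Further counts were 0 lower in naïve *RiboTag* against naïve *ME*, 1 lower in the difference between fractions at IM24h, 0 higher in the difference between fractions at IM72h and 3 lower in the difference between fractions at IM72h. Further counts were 3 higher in *ME* IM24h against IM3h. Of all genes, this scaling called 7001 and 10473 in *ME* IM24h and IM72h against naïve and 5640 in naïve *RiboTag* against naïve *ME*. It called 450 and 7103 in the differences between fractions at IM24h and IM72h, and 8185 in *ME* IM24h against IM3h.

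With scaling to *Actb*, *Hsp90ab1* and *Rplp1*, in *ME* IM24h against naïve *Klf7* was -0.28. *ME* IM3h against naïve then had *Klf3* at -0.29. *ME* IM72h against IM24h then had *Klf15* at -0.33. *ME* IM72h against naïve then had *Klf5* at -0.52. *RiboTag* IM24h against IM3h then had *Klf3* at -0.72 and *Klf10* -1.45. *RiboTag* IM24h against naïve then had *Klf2* at -0.036, *Klf6* -0.60, *Klf7* -0.80 and *Klf10* -0.65. *RiboTag* IM3h against naïve then had *Klf13* at -0.28. *RiboTag* IM72h against naïve then had *Klf3* at -1.53. At IM24h the difference between fractions then had *Klf3* at -0.70, *Klf6* -0.17 and *Klf7* -0.53. At IM3h the difference between fractions then had *Klf9* at -0.025. At IM72h the difference between fractions then had *Klf2* at -0.75, *Klf7* -0.73 and *Klf9* -0.13. Naïve *RiboTag* against naïve *ME* then had *Klf2* at 0.021. The members called were 1 higher in *RiboTag* IM3h against naïve, 2 lower in *ME* IM3h against naïve, 1 lower in *ME* IM24h against naïve and 1 higher in *ME* IM72h against naïve. Further counts were 1 lower in naïve *RiboTag* against naïve *ME*, 0 higher in the difference between fractions at IM72h, 0 lower in *RiboTag* IM24h against IM3h and 0 higher in *ME* IM24h against IM3h. Further counts were 0 higher in *ME* IM72h against IM24h. Of all genes, this scaling called 548 in *RiboTag* IM3h and 6942, 2617 and 9994 in *ME* IM3h, IM24h and IM72h, each against naïve. It called 2436 in naïve *RiboTag* against naïve *ME*, 4830 in the IM72h difference and 43 in *RiboTag* IM24h against IM3h. In the *ME* it called 1869 in IM24h against IM3h and 4109 in IM72h against IM24h.

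With DESeq2, in the difference between fractions at IM24h *Klf9* was 0.0036. At IM3h the difference between fractions then had *Klf9* at -0.044. At IM72h the difference between fractions then had *Klf4* at 0.25. The members called were 0 lower in *RiboTag* IM72h against naïve, 0 lower in the difference between fractions at IM72h and 4 lower in *RiboTag* IM24h against IM3h. In these comparisons DESeq2 called 2282, 4707 and 1163 of all genes.

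With no filter on low counts, in *RiboTag* IM24h against IM3h *Klf3* was -0.052. At IM72h the difference between fractions then had *Klf2* at -0.018 and *Klf7* -0.044. Naïve *RiboTag* against naïve *ME* then had *Klf7* at -0.043. The members called were 0 lower in *RiboTag* IM72h against naïve, 0 higher in the difference between fractions at IM72h and 0 higher in *ME* IM24h against IM3h. Of all genes, 34, 4055 and 4145 were called in these comparisons.

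With AY036118 left out, in *RiboTag* IM24h against IM3h *Klf3* was -0.028. At IM24h the difference between fractions then had *Klf3* at -0.069.

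With all groups in 1 fit, in *ME* IM24h against IM3h *Klf2* was -0.0032. *RiboTag* IM24h against IM3h then had *Klf3* at -0.067. Naïve *RiboTag* against naïve *ME* then had *Klf7* at -0.067. The members called were 0 higher in *RiboTag* IM3h against naïve, 0 lower in *RiboTag* IM72h against naïve, 0 lower in *ME* IM3h against naïve and 0 lower in naïve *RiboTag* against naïve *ME*. Further counts were 0 lower in the difference between fractions at IM72h and 0 lower in *RiboTag* IM24h against IM3h. Of all genes, 34 and 1258 were called in *RiboTag* IM3h and IM72h and 3611 in *ME* IM3h, each against naïve. It was 109 in naïve *RiboTag* against naïve *ME*, 3536 in the IM72h difference and 45 in *RiboTag* IM24h against IM3h.

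With RLE size factors, in the difference between fractions at IM24h *Klf9* was 0.0068. At IM3h the difference between fractions then had *Klf9* at -0.044. At IM72h the difference between fractions then had *Klf4* at 0.25.

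With an unadjusted p under 0.05 with a change of over 2-fold, the members called were 1 lower in *RiboTag* IM24h against naïve, 1 lower in *ME* IM24h against naïve, 1 higher in *ME* IM72h against naïve and 1 lower in naïve *RiboTag* against naïve *ME*. Further counts were 1 lower in the difference between fractions at IM24h, 4 lower in *RiboTag* IM24h against IM3h, 0 higher in *ME* IM24h against IM3h and 0 higher in *ME* IM72h against IM24h. Further counts were 3 lower in *ME* IM72h against IM24h. Shares of all genes under this rule are not given.

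With only IM24h libraries 1 and 4, those with least AY036118, an alternative chosen after seeing the data, in *RiboTag* IM24h against naïve *Klf3* was 0.31, *Klf4* 0.51 and *Klf10* -0.016.

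With 1 library left out at a time, counts of members called ranged as follows. *ME* IM24h against IM3h had 0 to 1 higher. *ME* IM24h against naïve had 1 to 3 lower. *RiboTag* IM24h against IM3h had 0 to 3 lower. *RiboTag* IM3h against naïve had 3 to 7 higher. The IM72h difference between fractions had 0 to 1 higher and 1 to 2 lower. Shares of all genes in these fits are not given. Among single members, those that changed sign without 1 library are given as lowest and highest log2 value. For *ME* IM24h against IM3h this was *Klf15* from -1.33 to 0.16 and *Klf2* from -0.14 to 0.36. For *ME* IM24h against naïve this was *Klf6* from -0.16 to 0.068. For *ME* IM72h against IM24h this was *Klf15* from -0.17 to 0.93. For *ME* IM72h against naïve this was *Klf5* from -0.23 to 0.30. For *RiboTag* IM24h against IM3h this was *Klf10* from -0.58 to 0.49, *Klf3* from -0.53 to 0.25 and *Klf7* from -0.26 to 0.12. For *RiboTag* IM24h against naïve this was *Klf3* from -0.65 to 0.13 and *Klf4* from -0.69 to 0.24. For *RiboTag* IM3h against naïve this was *Klf13* from -0.051 to 0.15, *Klf15* from -0.86 to 0.19 and *Klf3* from -0.19 to 0.043. For *RiboTag* IM72h against naïve this was *Klf3* from -0.086 to 0.26, *Klf4* from -1.16 to 0.21, *Klf6* from -1.64 to 0.32, *Klf7* from -0.70 to 0.050 and *Klf9* from -0.80 to 0.20. For the difference between fractions at IM24h this was *Klf13* from -1.12 to 0.0061, *Klf3* from -0.69 to 0.32, *Klf7* from -0.048 to 0.55 and *Klf9* from -0.25 to 0.13. For the difference between fractions at IM3h this was *Klf2* from -0.27 to 0.31, *Klf3* from -0.21 to 0.023, *Klf4* from -0.54 to 0.073, *Klf6* from -0.14 to 0.12 and *Klf9* from -0.095 to 0.15. For the difference between fractions at IM72h this was *Klf2* from -0.30 to 0.51, *Klf4* from -1.27 to 0.086, *Klf6* from -0.81 to 1.31 and *Klf7* from -0.43 to 0.32. For naïve *RiboTag* against naïve *ME* this was *Klf10* from -0.59 to 0.0011, *Klf2* from -0.27 to 0.19 and *Klf7* from -0.094 to 0.080.

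No paired analysis was possible because the line names of the tables carry no replicate number. Depth limits *Klf15* most, with few or no counts, and the *RiboTag* libraries at IM72h, whose counts beside AY036118 are fewest. The tests in *RiboTag* at IM24h and IM72h had wide intervals, and a member that did not pass there is not shown to be unchanged.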
